A study of Mus musculus with 3 samples.

Results

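The 10 genes described here carry the core of the TGF-beta signal in mouse regulatory T cells (Treg cells): Tgfb1, Furin, Tgfbr1, Tgfbr2, Smad2, Smad3, Smad4, Smad7, Ski and Skil. They were picked by name as parts of the pathway, with earlier results of these data known, and they are 10 of the 10886 genes with enough signal to compare. Cells positive for CD3, CD4 and the YFP reporter of Foxp3 were taken by flow cytometry from adult C57BL/6 mice whose Foxp3 gene drives Cre-YFP (labelled Foxp3-YFP), and H3K36me3 was profiled by chromatin immunoprecipitation sequencing (ChIP-seq) at steady state. The spleen group and the large intestine group share this genotype, strain and antibody, neither was treated, and each is 1 library from cells pooled over male and female mice. An input library of splenic Treg cells was not analysed here. With 1 library per tissue no difference below has a replicate check and no p-value is given, so every statement compares 2 libraries and not 2 populations of mice.

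TGF-beta is made as an inactive precursor. Furin, a proprotein convertase, cuts the precursor, and released TGF-beta binds the receptor kinases Tgfbr2 and Tgfbr1, which phosphorylate Smad2 and Smad3. These join Smad4 and enter the nucleus to act on transcription, while Smad7 blocks the receptors and Ski and Skil repress Smad target genes. In T cells the pathway is known for its part in inducing Foxp3 outside the thymus and for the integrin CD103 that holds lymphocytes in epithelium. H3K36me3, which Setd2 writes behind elongating RNA polymerase, usually covers the body of transcribed genes and rises toward their end.

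The deposited value of a peak is its mean read coverage as RPKM, that is, coverage per kilobase scaled to the number of mapped reads. The step between low values gave a depth of 29600000 mapped reads for the spleen library and 38100000 for the other. Large intestine values were multiplied by 0.969 so that both libraries have the same total over all 120910 peaks, and the values below are on that scale unless called deposited. Of these peaks, 211 have their midpoint in the body of one of the 10 genes. Ratios are log2 of large intestine over spleen, each value plus 0.5 RPKM, so 0 means equal signal. The bracketed range is an approximate 95% counting interval, which covers the error of counting reads in these 2 libraries and no variation between mice. In pooled cells, a change of the mark within Treg cells and a change in the makeup of the sorted cells cannot be told apart.

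The mm10 sequences below come from the middle 200 bases of 5 of the 6 peaks of at least 1 kb that were the 3 most unequal in each direction, and are shown so that the regions behind the largest differences can be seen. They are given on the plus strand of the reference, with CpG dinucleotides in capitals. The first 3 lie in peaks that were higher in large intestine and the last 2 in peaks that were higher in spleen.
Skil chr3:31097680-31097879: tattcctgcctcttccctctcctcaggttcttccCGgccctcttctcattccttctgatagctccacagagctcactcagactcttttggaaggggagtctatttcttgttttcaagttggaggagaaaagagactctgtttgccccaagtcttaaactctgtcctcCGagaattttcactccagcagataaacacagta
Furin chr7:80400156-80400355: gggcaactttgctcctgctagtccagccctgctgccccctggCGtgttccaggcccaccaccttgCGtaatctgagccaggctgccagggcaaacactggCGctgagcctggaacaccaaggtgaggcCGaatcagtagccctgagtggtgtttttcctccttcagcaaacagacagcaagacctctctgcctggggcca
Furin chr7:80391764-80391963: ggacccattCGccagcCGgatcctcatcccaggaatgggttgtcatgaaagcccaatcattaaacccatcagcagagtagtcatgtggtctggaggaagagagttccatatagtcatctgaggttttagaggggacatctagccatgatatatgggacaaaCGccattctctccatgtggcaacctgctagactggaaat
Tgfbr2 chr9:116156030-116156229: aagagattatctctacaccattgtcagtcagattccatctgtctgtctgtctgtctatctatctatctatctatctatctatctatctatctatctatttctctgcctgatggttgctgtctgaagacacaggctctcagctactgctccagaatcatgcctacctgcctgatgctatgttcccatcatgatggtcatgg
Tgfbr2 chr9:116132661-116132860: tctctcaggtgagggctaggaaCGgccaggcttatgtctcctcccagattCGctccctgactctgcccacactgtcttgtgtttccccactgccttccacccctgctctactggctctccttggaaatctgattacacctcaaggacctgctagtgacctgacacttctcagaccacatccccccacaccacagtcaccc
The Skil window, in a peak within 1 kb of an annotated transcript start, reaches into coding sequence, as does the second Furin window, while the others are intronic. The windows hold from 0 CpG in the first Tgfbr2 window to 4 in the first Furin window. The first Tgfbr2 window holds a run of short tandem repeats. The peak left out here lies in Smad4 and is given by its values only. It was more unequal than the last Tgfbr2 peak.

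Among the 10 genes, H3K36me3 differed most at Furin, where the large intestine library had 1.86 times the signal of the spleen library. Smad3, Tgfb1 and Skil were 1.26, 1.29 and 1.29 times as high in large intestine, with counting intervals above 0. Ski was 1.20 times as high in spleen, with an interval below 0. The receptors, Smad2, Smad4 and Smad7 had intervals that hold 0. Furin was thus the 1 gene of 10 past 1.5-fold in large intestine, where 9.47% of all genes were past it, and 0 of 10 were past 1.5-fold in spleen, where 6.22% of all genes were. The interval lay above 0 for 4 genes and below 0 for 1, against 18.0% and 15.2% of all genes. The median ratio of the 10 genes was 0.17, and that of all 10886 genes was 0.0053, with quartiles of -0.20 and 0.24. All 10 genes passed the minimum of 20 RPKM over both libraries, and each would have passed it with either library alone.

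**Figure D1:**
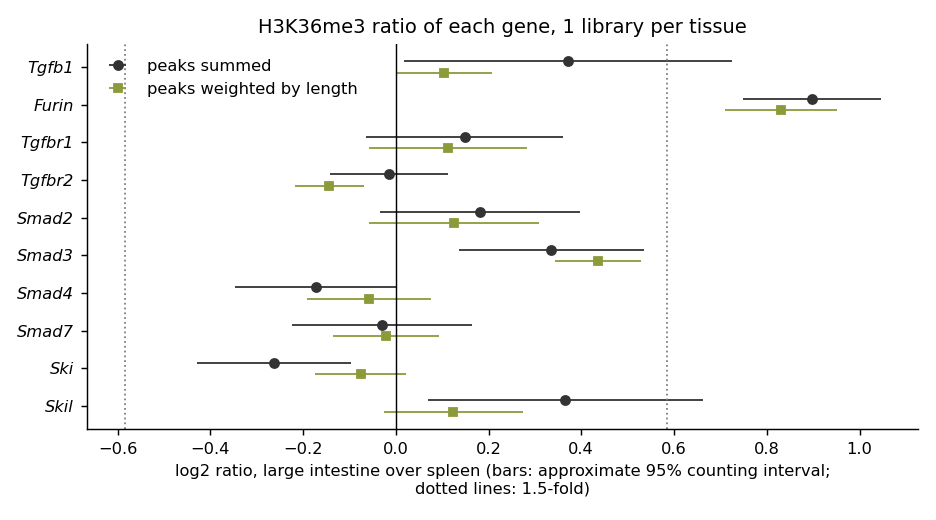
Log2 ratio of H3K36me3, large intestine over spleen, for each of the 10 genes (x axis, log2; one row per gene), with the values of all peaks summed (circles) or each peak weighted by its length (squares); bars are approximate 95% counting intervals and dotted lines mark 1.5-fold. Furin is the 1 gene past 1.5-fold, at 0.90 summed and 0.83 weighted.

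Levels between genes can be compared per base of gene body. On that scale, the mean RPKM over the whole body with bases outside peaks at 0, Tgfb1 was highest in spleen at 19.3, followed by Furin at 15.5, Smad7 at 13.0 and Tgfbr2 at 9.59. Skil and Ski lay close together at 7.39 and 7.31, as did Smad3 and Smad4 at 4.14 and 4.13, and the lowest were Tgfbr1 at 2.56 and Smad2 at 1.93. The median coding gene had 4.95 in spleen and 5.04 in large intestine, so 6 of the 10 genes lay above it in spleen. In large intestine the order was the same except that Furin, at 27.6, stood above Tgfb1, at 20.8. Without replicates it cannot be said which neighbours in this order differ beyond the spread between samples.

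**Figure D2:**
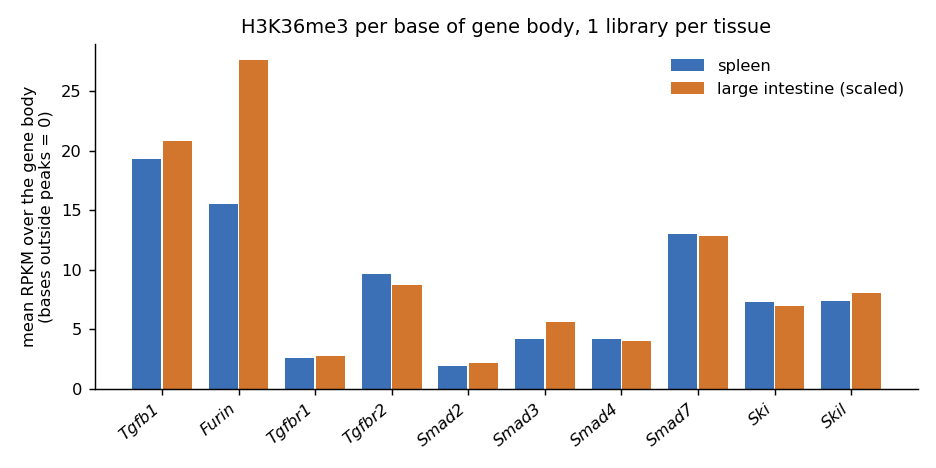
Mean RPKM per base of gene body (y axis, bases outside peaks counted as 0) for the 10 genes in spleen and in large intestine (scaled), 1 library each, so there are no error bars. Tgfb1 is the tallest in spleen at 19.3 and Furin in large intestine at 27.6.

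Tgfb1, the ligand gene, lies at chr7:25687002-25705077 on the plus strand. Summed over its 6 peaks it had 65.6 RPKM in spleen against 85.1 in large intestine (87.8 as deposited). Its ratio was 0.37 [0.02 to 0.72], and 5 of the 6 peaks were higher in large intestine. Almost all of the signal, however, sat in 1 peak of 16.7 kb in the body and 3198 bp beyond the gene's end, which took in 96.5% of the spleen signal once peaks were weighted by length. That peak had 24.8 RPKM in spleen against 26.2 in large intestine, a ratio of 0.08 [-0.02 to 0.19]. The other 5 peaks summed to 40.9 and 58.8 RPKM, a ratio of 0.52. With peaks weighted by length the ratio of Tgfb1 fell to 0.10 [0.0012 to 0.21], so the gene's broad domain was close to equal in both libraries and the short peaks near its start made up most of the summed difference.

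Furin, the convertase gene, lies at chr7:80388585-80405436 on the minus strand. It had 60.4 RPKM in spleen against 112.9 in large intestine (116.5 as deposited), a ratio of 0.90 [0.75 to 1.05] that exceeded the ratio of 95.6% of all genes. All 4 peaks were higher in large intestine. From the start of the gene to its end they went from 5.48 to 12.9 RPKM (ratio 1.16), from 20.7 to 36.1 RPKM (0.79), from 30.1 to 53.0 RPKM (0.81) and from 4.11 to 10.9 RPKM (1.30). The middle pair, of 4.90 and 4.98 kb, cover most of the gene, and the first and the third of the 4 hold the Furin windows printed above. The ratio was 0.86 between the gene's start and its midpoint and 0.82 between the midpoint and the end. The second peak spans the midpoint and has 1 value per library, so these ratios share it. They cannot show how the ratio runs within a peak. With peaks weighted by length the ratio of Furin was 0.83 [0.71 to 0.95]. Furin was the 1 gene of the 10 with every peak higher in the same tissue.

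The larger ratio at Furin did not stop at its end. Fes, a tyrosine kinase gene that starts a further 0.639 kb downstream, had 52.1 RPKM in spleen against 164.2 in large intestine, a ratio of 1.65 [1.25 to 2.04]. On the other side the nearest coding gene with signal was Blm, a helicase gene 49.3 kb away, with 123.7 and 101.5 RPKM and a ratio of -0.28 [-0.65 to 0.08]. The antisense gene Gm44851 overlaps Furin and shares 0 of its 4 peaks.

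Tgfbr1, the type I receptor kinase, lies at chr4:47353222-47414931 on the plus strand. Its 20 peaks summed to 194.2 RPKM in spleen against 215.3 in large intestine, a ratio of 0.15 [-0.06 to 0.36], with 12 peaks higher in large intestine. Its longest peak, of 2.45 kb, had 11.5 and 12.2 RPKM. Peaks covered 23.7% of the body, and 100% of the signal lay between the gene's midpoint and its end in both libraries.

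Tgfbr2, the type II receptor kinase that binds the ligand first, lies at chr9:116084293-116175360 on the minus strand. Its 30 peaks summed to 383.0 RPKM in spleen against 379.1 in large intestine, a ratio of -0.015 [-0.14 to 0.11]. Weighted by length the ratio was -0.14 [-0.22 to -0.07], which lies below 0. Of its 12 peaks of at least 1 kb, 2 were higher in large intestine. The longest, of 9.17 kb, had 18.3 RPKM in spleen against 16.7 in large intestine, a ratio of -0.13 [-0.30 to 0.04]. A 1.53-kb peak in an intron, at chr9:116155367-116156892, had 14.0 and 7.87 RPKM, a ratio of -0.79 [-1.31 to -0.27]. A 1.44-kb intronic peak at chr9:116132040-116133481 had 13.2 and 10.1 RPKM, a ratio of -0.37 [-0.88 to 0.14]. These are the peaks of the Tgfbr2 windows printed above. Against this, the peak at the gene's start had 4.69 RPKM in spleen against 13.2 in large intestine, a ratio of 1.40 [0.17 to 2.63]. That peak was picked after its values were seen. The lower signal of Tgfbr2 in large intestine thus appeared in its long peaks and in the weighted ratio, and not in the plain sum.

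Smad3, a receptor-regulated Smad, lies at chr9:63646767-63757994 on the minus strand and is the longest of the 10 genes at 111.2 kb. Its 36 peaks summed to 315.1 RPKM in spleen against 397.7 in large intestine, a ratio of 0.34 [0.14 to 0.53], and 26 of them were higher in large intestine. Weighted by length the ratio was 0.44 [0.34 to 0.53]. Most of the signal sat in a pair of broad peaks near the end of the gene. The 10.4-kb peak had 16.5 RPKM in spleen against 22.1 in large intestine, a ratio of 0.41 [0.26 to 0.56]. The 11.3-kb peak, which runs 1228 bp past the gene's end, had 18.8 and 26.0 RPKM, a ratio of 0.46 [0.32 to 0.59]. The broad domain of Smad3 was thus itself higher in large intestine, unlike that of Tgfb1. After a correction for the base composition of the peaks, described further on, the summed ratio of Smad3 was 0.15 [-0.06 to 0.35], an interval that holds 0, while the ratio with both length weights and this correction was 0.26 [0.17 to 0.36], above 0.

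Smad2, the other receptor-regulated Smad, lies at chr18:76241580-76310963 on the plus strand. Its 23 peaks, 13 of them higher in large intestine, summed to 204.2 RPKM in spleen against 231.6 in large intestine, a ratio of 0.18 [-0.03 to 0.40]. Its longest peak, of 1.57 kb, had 11.7 and 9.40 RPKM. With the peaks of at least 1 kb alone the ratio was -0.05, and its sign therefore rests on short peaks. Smad2 had no broad domain like that of Smad3: peaks covered 20.5% of its body, the least of the 10 genes.

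Smad4, the common partner of the receptor-regulated Smads, lies at chr18:73639009-73703780 on the minus strand. Its 35 peaks, 12 of them higher in large intestine, summed to 366.0 RPKM in spleen against 324.5 in large intestine. The ratio was -0.17 [-0.35 to 0.0008], an interval that just reaches 0, and it was -0.06 [-0.19 to 0.08] with peaks weighted by length. Its longest peak, of 3.15 kb near the gene's end, had 15.9 and 12.7 RPKM, a ratio of -0.32 [-0.63 to -0.0077]. A 1.02-kb intronic peak had 15.6 RPKM in spleen against 10.3 in large intestine, a ratio of -0.58 [-1.16 to 0.0005]. Of its 8 peaks of at least 1 kb, 3 were higher in large intestine. Among these 3, a 2.855-kb intronic peak had 9.38 and 12.7 RPKM, a ratio of 0.42 [0.04 to 0.80]. That peak was picked after its values were seen. With the peaks of at least 1 kb alone the ratio of Smad4 was 0.0039 [-0.18 to 0.19].

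Smad7, the inhibitory Smad and itself a target of the pathway, lies at chr18:75367529-75395935 on the plus strand. It was close to equal in both libraries, at 187.3 RPKM in spleen against 183.4 in large intestine, a ratio of -0.03 [-0.22 to 0.16]. Of its 14 peaks, 7 were higher in large intestine. Its strongest peak, centred on a coding exon near its end, had 31.8 and 30.9 RPKM, and its longest, of 6.76 kb, had 16.1 and 16.4 RPKM. The interval allows a difference of up to -0.22 or 0.16 on the log2 scale, so a small difference was not detectable at this depth.

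Ski, a corepressor that binds Smads, lies at chr4:155154075-155222592 on the minus strand. Its 30 peaks summed to 395.0 RPKM in spleen against 329.2 in large intestine, a ratio of -0.26 [-0.43 to -0.10], and 21 of them were higher in spleen. Its longest and strongest peak, of 7.05 kb at the gene's end, went the other way, with 35.7 RPKM in spleen against 37.5 in large intestine, a ratio of 0.07 [-0.06 to 0.20]. The other 29 peaks summed to 359.2 and 291.7 RPKM, a ratio of -0.30. The difference at Ski thus lay in the peaks away from the end. Weighted by length the ratio was -0.08 [-0.17 to 0.02], an interval that holds 0.

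Skil, the second corepressor, also known as SnoN, lies at chr3:31095058-31122577 on the plus strand. Its 13 peaks summed to 107.6 RPKM in spleen against 138.8 in large intestine, a ratio of 0.37 [0.07 to 0.66], and 10 of them were higher in large intestine. Here too the broadest peak, of 8.84 kb, was equal in both libraries, at 17.4 and 17.2 RPKM. As mean coverage per base, the ratio was 0.88 before the gene's midpoint and 0.01 beyond it, where the broadest peak lies. The difference was not confined to the stretch before the midpoint. Of 10 equal parts of the body, the one ending at 60% had 4.63 RPKM in spleen against 6.24 in large intestine. The 1.30-kb peak at chr3:31097130-31098429, which holds the Skil window printed above, had 5.73 RPKM in spleen against 14.6 in large intestine, a ratio of 1.28 [0.64 to 1.92]. Weighted by length the ratio of the gene was 0.12 [-0.03 to 0.27], an interval that holds 0. The corepressor genes thus had summed ratios of opposite sign and broad peaks with ratios near 0.

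**Figure D3:**
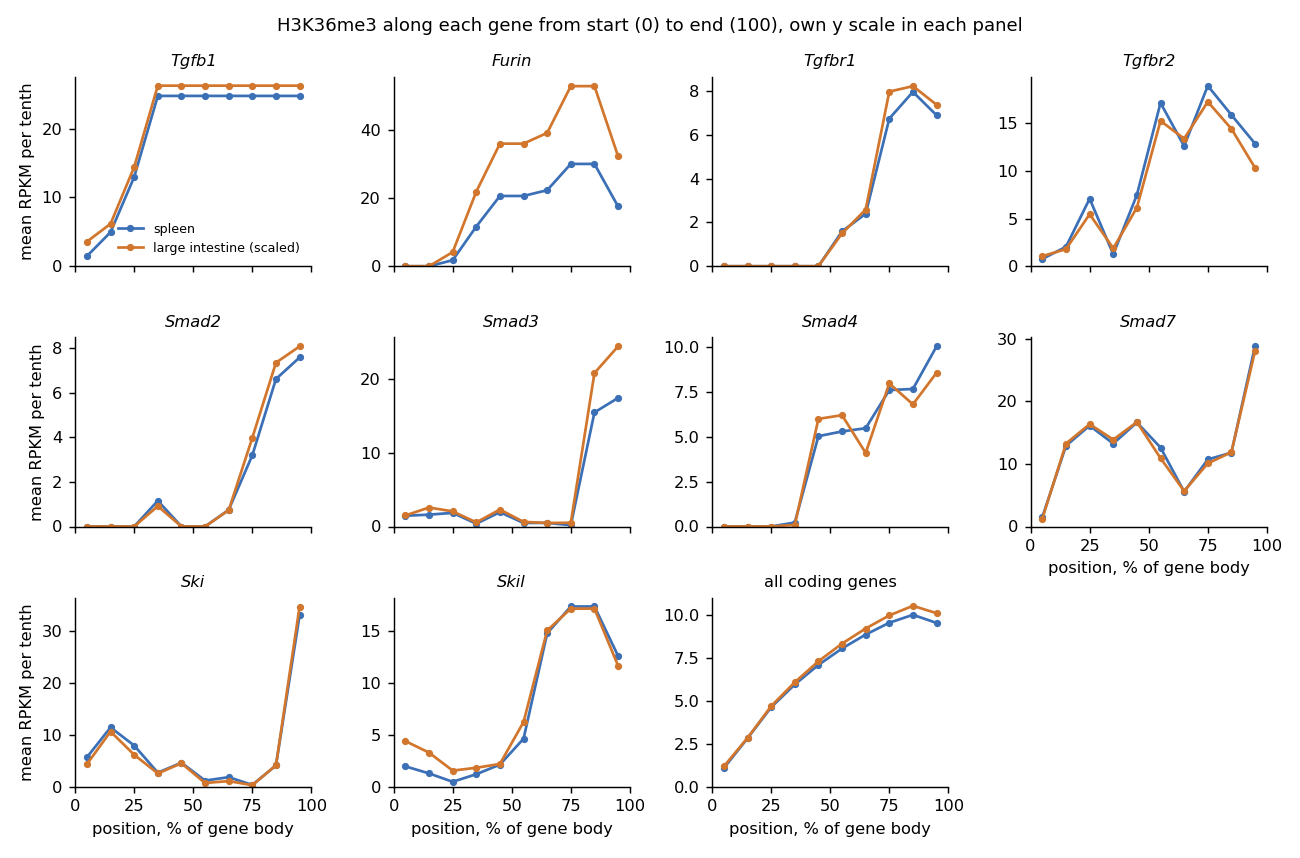
Mean RPKM in each of 10 equal parts of the gene body (y axis, own scale in each panel) from the start of the gene at 0% to its end at 100% (x axis), for the 10 genes and as the mean over all coding genes, in spleen and in large intestine (scaled). The lines of Furin separate over the whole marked body, those of Skil near the start and just beyond the midpoint, and those of Smad3 near the end. Those of Smad7 lie close to each other.

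Along the gene, the mark rose toward the end in most of the 10 genes. The share of the body's signal beyond the midpoint was between 53.5% at Smad7 and 100% at Tgfbr1 in spleen, and the median coding gene had 73.3% in spleen and 74.0% in large intestine. Smad7 and Ski, at 53.5% and 55.6% in spleen, had the lowest shares, each with a second region of signal near the start. Ski was not even along its body. The last of its 10 equal parts had 33.1 RPKM in spleen, against at most 11.5 in any other part. The share differed most between the libraries at Skil, where it was 90.4% in spleen and 83.5% in large intestine. It was 78.0% and 77.5% at Furin and 82.5% and 83.9% at Smad3, so the higher signal in large intestine there came with nearly the same distribution. Peaks covered 85.1% of the body of Tgfb1, 79.1% of Smad7 and 70.4% of Furin, against a median of 39.2% over coding genes.

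Most of the 211 peaks lay in introns (171), with 17 within 1 kb of a transcript start, 13 in 3' UTRs, 9 in coding exons and 1 outside coding transcripts. In large intestine 109 of them, or 51.7%, were higher, against 49.0% of all peaks. Short and long peaks have to be read apart, because a short peak holds few reads. Of the 163 peaks under 1 kb, 87 were higher in large intestine, against 48.3% of all such peaks. The ratios of the 163 peaks had a standard deviation of 0.80. Of the 48 peaks of at least 1 kb, 22 were higher in large intestine, against 51.4% of all such peaks, and the standard deviation was 0.40. Among these 48 peaks, 4 were past 1.5-fold in large intestine and 1 in spleen, while 5.51% and 4.24% of all peaks of this length were. The 4 are 3 peaks of Furin and 1 of Skil, and the 1 is the intronic peak of Tgfbr2. The 8 peaks of at least 5 kb had a median ratio of 0.05. Of these, the pair in Smad3 had intervals above 0, and the 7.65-kb peak of Tgfbr2, with 24.0 and 20.2 RPKM and a ratio of -0.24 [-0.40 to -0.07], had its interval below 0.

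**Figure D4:**
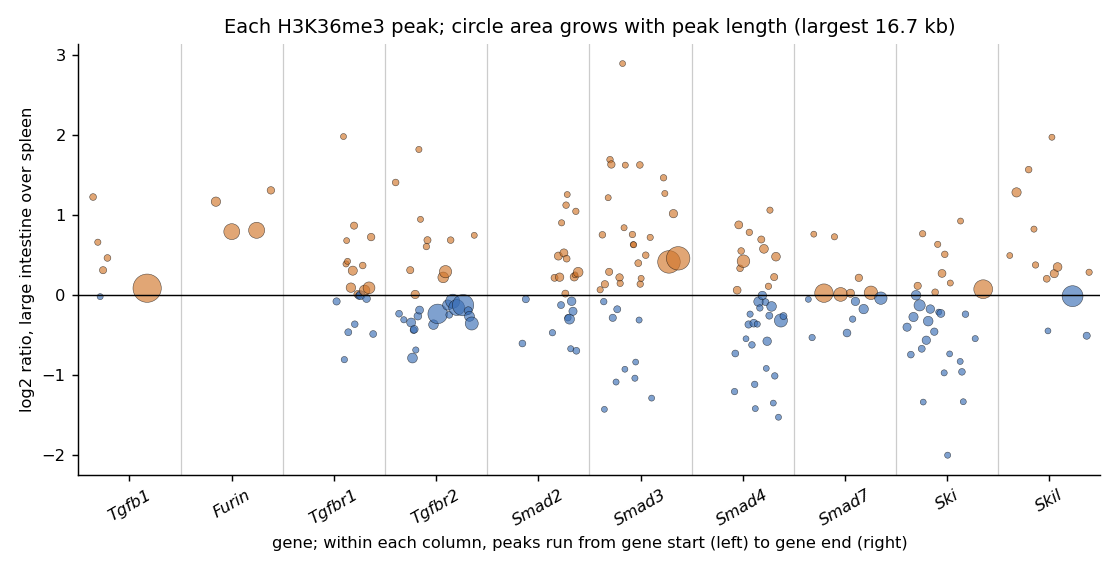
Log2 ratio, large intestine over spleen (y axis), of each of the 211 peaks, by gene and ordered within each column from gene start to gene end (x axis); circle area grows with peak length, orange is higher in large intestine and blue is higher in spleen. The 8 peaks of at least 5 kb lie between -0.24 in Tgfbr2 and 0.46 in Smad3, and the widest scatter is among short peaks.

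The base composition of peaks moved with the ratio over the whole table. Of all peaks, 34.2% were higher in large intestine in the class with the lowest GC content, 50.3% in the middle class and 62.6% in the highest, with classes of equal size and medians of -0.22, 0.0034 and 0.18. For the peaks of the 10 genes, cut at the same GC contents, the counts were 29 of 60, 24 of 53 and 56 of 98. Corrected for the median ratio of peaks of like GC content, Furin had a ratio of 0.71 [0.55 to 0.86]. That ratio was still past 1.5-fold, which is 0.585 on the log2 scale, but its interval reached below this line. Ski moved to -0.44 [-0.61 to -0.27] and Skil to 0.50 [0.21 to 0.79]. Tgfb1, at 0.16 [-0.20 to 0.52], then had an interval that holds 0, as did Smad3. Tgfbr1, at 0.28 [0.07 to 0.49], and Smad2, at 0.29 [0.08 to 0.51], came to lie above 0. With this correction the interval lay above 0 for 11.7% of all genes and below 0 for 14.5%. Length weights and this correction together were a setting chosen after seeing the data. The share of all genes with an interval above or below 0 was not computed for that setting. There Furin had 0.62 [0.50 to 0.75], Skil 0.28 [0.13 to 0.42] and Smad3 0.26 [0.17 to 0.36]. Tgfbr1 had 0.24 [0.07 to 0.40] and Smad2 0.24 [0.06 to 0.42]. Below 0 lay Ski at -0.26 [-0.36 to -0.16], Tgfbr2 at -0.18 [-0.26 to -0.10] and Smad7 at -0.16 [-0.28 to -0.04]. Smad4, at 0.04, and Tgfb1, at -0.010, had intervals that hold 0. The peak at the start of Tgfb1, with 68.3% GC and values of 6.13 and 14.9 RPKM, and that of Tgfbr2, with 69.9% GC, are among the 7 peaks over 60% GC, of which 5 were higher in large intestine. The share of all peaks over 60% GC was not computed, and in the highest GC class it was the 62.6% given above. The Tgfb1 peak was also picked after its values were seen. The part of base composition in these differences was not tested beyond this correction.

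The neighbours of the 10 genes did not share one direction, and only some of them are given here. The coding genes next to Tgfb1, B9d2 and Ccdc97, had ratios of 0.45 [-0.11 to 1.00] and 0.45 [0.17 to 0.73]. Aagab, 2.18 kb beyond the end of Smad3, had 260.9 RPKM in spleen against 346.9 in large intestine, a ratio of 0.41 [0.24 to 0.58] that resembles the ratio of Smad3, and the 11.3-kb peak at the end of Smad3 reaches toward it. Zwilch, on the other side of Smad3, had a ratio of -1.09 from 2 peaks. Next to Smad4, Elac1 had a ratio of 0.64 [0.32 to 0.96], opposite in sign to that of Smad4. The nearest coding genes with signal lay 544 and 619 kb from Smad2, and 774 kb from Tgfbr2 on one side.

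The rest of the superfamily pathway was read from a list of 65 further ligands, receptors, Smads, cofactors, ubiquitin ligases and targets. Of these, 23 had no peak in their body. They include the ligand genes Tgfb2, Tgfb3, Bmp2, Bmp4 and Inhba, the latency proteins Ltbp1, Ltbp3 and Ltbp4, the receptor genes Acvr1, Acvrl1, Acvr2b, Bmpr1a and Bmpr1b, the inhibitory Smad6 and the BMP receptor decoy Bambi. Of Tgfb1, Tgfb2 and Tgfb3, only Tgfb1 thus had a called peak in its body, and of the inhibitory Smad genes Smad6 and Smad7, only Smad7. The deposited values cover called peaks only, so absence of the mark elsewhere was not measured. Of the 40 genes with enough signal, 17 had more signal in large intestine and 23 had more in spleen, with a median of -0.04. The interval lay above 0 for 11 and below 0 for 13, against 18.0% and 15.2% of all genes. There were 8 past 1.5-fold in large intestine and 5 in spleen, where 9.47% and 6.22% of all genes were. Of the 40 genes, 34 reached 20 RPKM in each library alone, and 4 of these were past 1.5-fold in large intestine and 4 in spleen. The share of all genes under this stricter minimum was not computed, so these last counts have nothing to be read against.

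The known target Itgae, which encodes the CD103 chain, had the highest sum over peaks of the 8 that were past 1.5-fold in large intestine. It had 250.5 RPKM in spleen against 449.7 in large intestine, a ratio of 0.84 [0.66 to 1.02], and 28 of its 33 peaks were higher in large intestine. Pmepa1, a target that dampens Smad signalling, had 90.4 and 139.2 RPKM, a ratio of 0.62 [0.32 to 0.92]. The receptor genes Acvr2a and Bmpr2 had ratios of 1.68 [0.97 to 2.39] and 0.61 [0.17 to 1.05], and the ligand gene Gdf11 one of 0.92 [0.34 to 1.498]. Acvr2a, with 18.4 and 60.2 RPKM, passed the minimum through the large intestine alone. Id2, an inhibitor of helix-loop-helix factors, had 7.28 RPKM in spleen against 41.4 in large intestine in 3 peaks, and passed in the same way. The cofactors Tgif1 and Tgfb1i1 had ratios of 0.59 [0.18 to 1.00] and 0.64 [-0.58 to 1.86]. Tgif1, with 19.95 and 30.3 RPKM, also passed through the large intestine alone, and Tgfb1i1, with 11.4 and 18.0 RPKM, passed through neither library alone.

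On the other side, Trim33, a ubiquitin ligase that acts on Smad4, had 236.3 RPKM in spleen against 154.1 in large intestine, a ratio of -0.62 [-0.87 to -0.36], and 3 of its 22 peaks were higher in large intestine. Smad1, which carries BMP signals, had 81.6 and 37.3 RPKM, a ratio of -1.12 [-1.63 to -0.61]. The ubiquitin ligase genes Wwp1 and Nedd4l had ratios of -0.87 [-1.29 to -0.44] and -0.77 [-1.35 to -0.19]. Id3 had 22.7 RPKM in spleen against 7.23 in large intestine in 2 peaks, a ratio of -1.59 [-2.69 to -0.49], and passed the minimum through the spleen alone. The genes of the list with the most signal were near equal: Wwp2 had 757.8 and 828.7 RPKM, a ratio of 0.13, and Ldlrad4 had 662.2 and 647.0 RPKM, a ratio of -0.03.

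**Figure D5:**
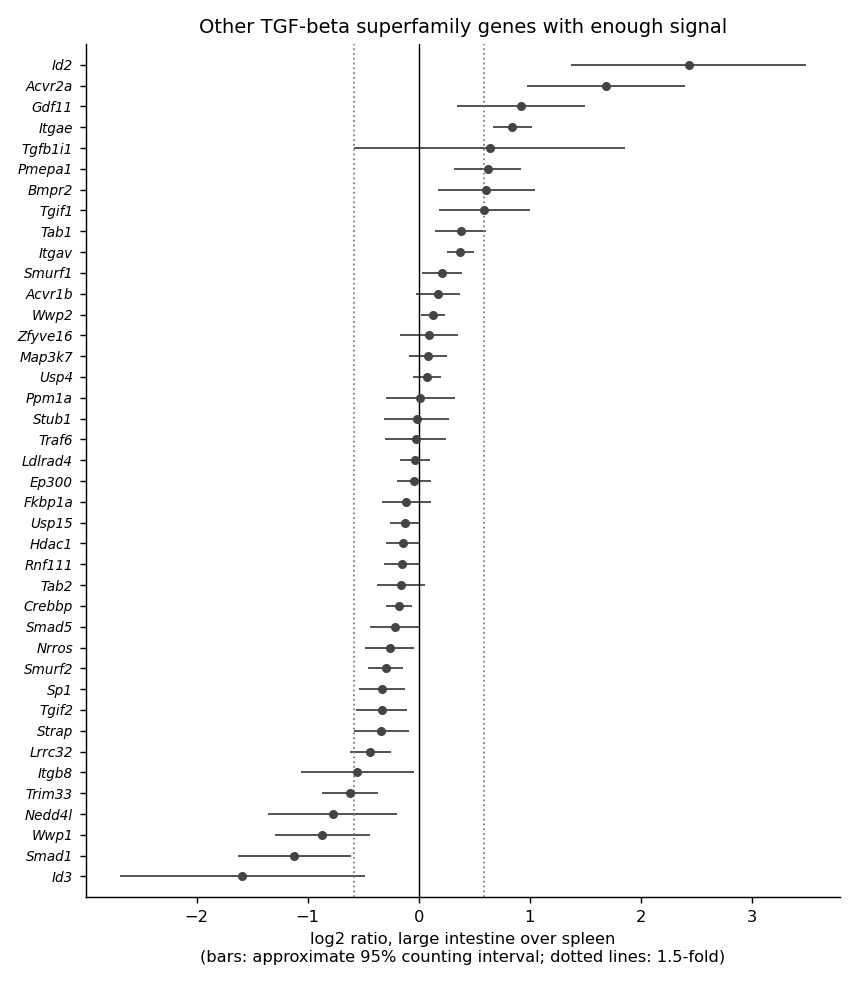
Log2 ratio, large intestine over spleen (x axis), of the 40 further TGF-beta superfamily genes above the minimum (rows, sorted); bars are approximate 95% counting intervals and dotted lines mark 1.5-fold. The points run from -1.59 at Id3 to 2.43 at Id2, with 8 past 1.5-fold on the right and 5 on the left.

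The sorted cells carried the mark on the genes that define them: all 9 Treg and T cell markers had peaks, and Foxp3 had 132.5 RPKM in spleen against 151.4 in large intestine, a ratio of 0.19 [-0.0052 to 0.39]. Summed over these 9 genes the signal was 1937 RPKM in spleen against 1597 in large intestine. That difference came from Ikzf2, with 1205 and 824.3 RPKM, and the other 8 genes summed to 732.0 and 772.5 RPKM. Of the 9 genes, 4 were higher in large intestine: Foxp3, Cd4, Ctla4 at 0.59 [0.31 to 0.88] and Tnfrsf18 at 0.80 [0.53 to 1.08]. The other 5 were higher in spleen: Ikzf2, Cd3e at -0.41 [-0.80 to -0.03], Cd3d at -0.46, Cd5 at -0.13 and Il2ra at -0.08. Of the 7 markers of intestinal epithelium, 5 (Krt8, Krt20, Muc2, Cdx2 and Cdh1) had no peak. The summed signal of the others, Epcam and Vil1, was 29.9 RPKM in spleen against 58.0 in large intestine. Vil1, with 4.63 and 12.2 RPKM in 1 peak, was below the minimum of 20 RPKM over both libraries. Among B cell markers, Cd79a, Cd79b and Pax5 had peaks, with a sum of 60.2 and 51.8 RPKM, and Ms4a1 and Ebf1 had none. Of the 6 myeloid markers, Csf1r alone had a peak, with 14.7 and 15.8 RPKM. Of the CD8 T cell markers, Cd8a had no peak and Cd8b1 had 21.1 and 9.16 RPKM. The epithelial sum moved in the same direction as Furin, Smad3, Tgfb1 and Skil, as did Foxp3, Cd4, Ctla4 and Tnfrsf18. The part of cell makeup in those ratios was not tested.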

How the data were processed

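H3K36me3 ChIP-seq of sorted Treg cells was compared between 1 spleen library and 1 large intestine library. The authors aligned single-end reads to mm10 with Bowtie2, used MACS2 with the input as control to call peaks, and joined the peaks of the 2 tissues into 1 set. The deposited values are RPKM coverage that the authors averaged over each merged peak, although the table is named for raw counts, and the submitters' processing notes also name FastQC and bedtools. Versions are not given in the sources used here. In peaks that start and end on a 20-bp grid, 100% of 459 spleen and 466 large intestine values were whole multiples of 1 read in 1 bin, to within 0.05 of a multiple, which gave the depth. Reads per peak were not recovered, so no count test was run.

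Peaks were assigned by midpoint to GENCODE M21 gene bodies, and 0 of 21 chromosomes had a peak past its end in GRCm38, the assembly of mm10, from which the printed sequences were read. Values were summed per gene, large intestine was scaled to the spleen total, and log2 ratios used a pseudocount of 0.5 RPKM, which understates the change of low genes. Genes needed a sum of 20 RPKM over the libraries to be compared. Each read was taken to cover 200 bp for the approximate 95% intervals, which treat reads as independent molecules and cover counting error only. Before and after a gene's midpoint, a pseudocount of 0.05 RPKM was used. The GC correction subtracted the median ratio in 20 bins of GC content. Code ran in Python 3.11.15 with pandas 2.3.3 and NumPy 2.4.6, and was tested on simulated data.

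The genes and lists were chosen with earlier results of these data known. By rule the 10 genes and their nearest coding neighbours with signal were to be named. So were the listed pathway genes past 1.5-fold and the pair with the highest sum. For peaks, the rule took in the longest and strongest of each gene and the 3 most unequal of at least 1 kb in each direction. Only some of the neighbours and of the strongest peaks are given above. Of the 211 peaks, 0 had their midpoint in another gene as well. Alternatives were other scalings, filters, pseudocounts, peak assignments and weights, reads of 75 bp and the GC correction. One further marker gene is not reported here.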

Additional observations from a re-analysis of the deposited data

How the results depend on the processing

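No paired analysis was possible because each tissue had 1 library, and for the same reason no replicate could be left out. Of 128 recomputed ratios of single genes, 112 stayed within the counting interval of the reported value and 16 moved out of it. The sign changed in 11, of which 8 belong to genes whose reported interval holds 0 and 3 to genes whose interval does not. These 3 are as follows. With the strongest peak alone Ski had 0.070 and Skil -0.017, and with length weights and the GC correction together, a setting chosen after seeing the data, Tgfb1 had -0.010. The median ratio of the 10 genes went from 0.17 to 0.0032 with the strongest peak of each gene and to 0.043 with peaks of at least 1 kb. At a minimum of 200 RPKM, 8 of the 10 genes were left and 0 were past 1.5-fold in large intestine, because Furin fell below the minimum. The number of genes with an interval above 0, 4 as reported, was 6 with reads of 75 bp, 5 without scaling and 3 with length weights. The number below 0 was 2 with median-of-ratios scaling and 2 with reads of 75 bp, in place of 1, and it stayed at 1 with length weights, where the gene was Tgfbr2 in place of Ski. Of the peaks of at least 1 kb, 22 were higher in large intestine. The count of further pathway genes past 1.5-fold in large intestine, 8 as reported, was 5 with a pseudocount of 5, 2 at a minimum of 200 RPKM, 5 with length weights, 2 with peaks of at least 1 kb, 2 with the nearest transcript start and 5 with the GC correction. In spleen it was 5 as reported, 1 at a minimum of 200 RPKM and 0 with peaks of at least 1 kb. The cause of these changes was not tested, apart from the minimum and the peak length, which leave fewer genes or peaks. Of all genes, 8.3% were past 1.5-fold in large intestine with length weights and 7.03% with the GC correction. With length weights the interval lay above 0 for 22.5% of all genes and below 0 for 17.1%. Shares of all genes were not computed for the other alternatives.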

Other observations

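The 10 kb beyond the end of each gene held further signal for 8 of the 10 genes. Beyond Furin, 9 peaks summed to 47.9 RPKM in spleen against 149.9 in large intestine, a ratio of 1.64, and this stretch overlaps Fes. Beyond Smad3, 4 peaks had 49.6 and 66.8 RPKM, a ratio of 0.42, in a stretch that overlaps Aagab. Beyond Smad2, where no other coding gene lies, 4 peaks had 24.5 and 38.5 RPKM, a ratio of 0.64. Beyond Smad7 and Smad4, also without another coding gene, the ratios were 0.10 and -0.11. Beyond Ski, 2 peaks had 24.4 and 29.4 RPKM, a ratio of 0.26, opposite in sign to the ratio of its body, in a stretch that overlaps Morn1. Tgfbr1 and Tgfbr2 had no peak in this stretch.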
